A study of Mus musculus with 44 samples.

Results

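The 38 genes described here encode machinery that tethers, docks, primes, fuses and retrieves synaptic vesicles. They were chosen by name and comprise 13 synaptotagmins, 4 SNARE proteins, 2 synapsins, 3 SV2 glycoproteins, synaptogyrin, 3 Rab3 GTPases, 3 RIMs, 3 Munc13s, 3 complexins, Bassoon, Piccolo and dynamin. Each gene was read through the chromatin peaks that overlapped its span extended by 5 kb on both sides, and through its RNA. All 38 matched 1 of 21883 protein-coding genes of the mouse RefSeq annotation (GRCm38.p6, the same assembly as mm10), and all 38 were listed among the 53715 genes of the RNA table.

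At a nerve terminal, synapsins tether vesicles in a reserve, and Rab3 with RIM and Munc13 brings them to the active zone and primes them. A vesicle SNARE (Vamp) then zips with syntaxin and SNAP-25 on the plasma membrane, complexins hold the assembled complex in check, and calcium binding to a synaptotagmin triggers fusion. Dynamin pinches the membrane back off. Neurons of different brain regions differ in the paralogs they use for these steps.

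The mutant mice carried Polg(D181A), an altered version of the mitochondrial DNA polymerase, and are studied as a model of bipolar disorder. As background that the labels do not state, this form is carried by a transgene under the Camk2a promoter, which is active in forebrain excitatory neurons. Acetylation of histone H3 at lysine 27 (H3K27ac), found at active promoters and enhancers, was measured in adult Polg(D181A) (called Polg below) and wild-type (WT) mice, with 2 libraries of each genotype in the nucleus accumbens (NAC), the caudate putamen (CP), the cortex (COR) and the paraventricular thalamic nucleus (PVT). ATAC-seq, which reads open chromatin, covered 2 Polg and 2 WT libraries of PVT, and both chromatin assays used nuclei stained for the neuronal protein NeuN and sorted. RNA came from PVT in 5 groups of 4 libraries. These were depressive Polg COX-negative, depressive Polg COX-positive, euthymic Polg COX-negative, euthymic Polg COX-positive and euthymic WT COX-positive. COX is cytochrome c oxidase of the respiratory chain, which the labels give as stained or unstained. The strain is C57BL/6 in all but the ATAC libraries, whose strain labels differ from library to library. Whether replicates are separate animals is not in the labels. The p-values therefore reflect only how far these libraries varied, which may be technical.

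Total counts over peaks ran from 6415127 to 197650530 in the 16 H3K27ac libraries and from 2932270 to 8040451 in the 4 ATAC libraries, and RNA libraries held 26719334 to 115285349 counts. Among H3K27ac libraries, WT replicate 2 of CP and of NAC stood apart, with 80.8% and 69.6% of peaks at 0 counts, against 7.10% to 52.5% in the other 14. In CP, 270 of 537 peaks of the 38 genes (50.3%) held 0 counts in one WT library and at least 100 in the other. The share was 22.9% between the Polg libraries of CP, and in PVT it was 7.99% for Polg and 7.22% for WT. Marker genes were highest in the regions whose labels they match. Summed H3K27ac over 7 midline thalamic genes was 3278 to 4474 CPM (counts scaled by library size) in PVT and at most 489 elsewhere. For 7 cortical projection neuron genes it was 902 to 1456 CPM in COR and at most 477 elsewhere, and for 9 striatal projection neuron genes it was 2342 to 5279.8 CPM in CP and NAC and at most 1229 elsewhere. In PVT libraries 5 habenula genes summed to 207 to 306 CPM, against 24.6 to 137 CPM in the other regions, and the part of neighbouring habenula tissue in the results was not tested. Polg itself had 29.8 and 34.8 CPM of H3K27ac in Polg libraries of PVT, against 7.16 and 10.8 in WT. In NAC its values were 35.0 and 32.4 CPM in Polg, against 2.28 and 0 in WT, in CP 108 and 101 in Polg, against 46.0 and 18.3 in WT, and in COR 30.9 and 49.8 in Polg, against 15.8 and 50.8 in WT, with an overlap in COR alone. In RNA, Polg ranged from 0.555 to 198 CPM over the 16 Polg libraries and from 0.939 to 3.66 CPM over the 4 WT libraries. Of the 16, 5 did not exceed the highest WT library, 3 of them euthymic COX-positive and 2 depressive COX-negative.

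Every H3K27ac level below is in CPM on library sizes scaled together over the 16 libraries with edgeR's TMM factors, and each list of 4 values gives the 2 Polg libraries and then the 2 WT libraries of a region. Peaks were drawn separately in each region, so a sum over a gene covers only what was called there as peak. A peak that reached past a gene's window was counted whole.

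The promoters of Syt6, Cplx2 and Unc13c, each called between regions, and of a paralog of each, are shown first, because a start site can be read in all 5 chromatin tables. RefSeq promoter windows, 250 bases before to 50 after a start, were given for 28 of the 38 genes (37 windows). The bases upstream of a start are printed 5′ to 3′ on the gene's own strand (GRCm38.p6), with capitals marking GGGCGG, the box bound by Sp-family factors, and TGACG, the CRE half-site, on either strand.
Syt6 (chr3:103574995-103575244, plus strand): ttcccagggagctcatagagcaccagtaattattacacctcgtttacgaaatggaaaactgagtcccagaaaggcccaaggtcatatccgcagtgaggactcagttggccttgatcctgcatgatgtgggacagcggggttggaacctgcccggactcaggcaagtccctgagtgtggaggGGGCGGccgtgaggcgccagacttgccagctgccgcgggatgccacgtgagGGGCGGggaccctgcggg
Syt3 (chr7:44383876-44384125, plus strand): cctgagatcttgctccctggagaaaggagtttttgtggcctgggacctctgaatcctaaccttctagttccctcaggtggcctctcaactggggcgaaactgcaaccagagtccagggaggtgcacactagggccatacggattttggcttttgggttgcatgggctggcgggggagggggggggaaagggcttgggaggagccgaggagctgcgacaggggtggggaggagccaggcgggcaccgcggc
Cplx2 (chr13:54302306-54302555, plus strand): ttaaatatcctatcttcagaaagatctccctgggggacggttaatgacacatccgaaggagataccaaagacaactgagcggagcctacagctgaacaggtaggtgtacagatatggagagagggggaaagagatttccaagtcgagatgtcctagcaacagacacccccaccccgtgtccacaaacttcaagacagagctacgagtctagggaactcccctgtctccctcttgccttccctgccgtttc
Cplx1 (chr5:108550028-108550277, minus strand): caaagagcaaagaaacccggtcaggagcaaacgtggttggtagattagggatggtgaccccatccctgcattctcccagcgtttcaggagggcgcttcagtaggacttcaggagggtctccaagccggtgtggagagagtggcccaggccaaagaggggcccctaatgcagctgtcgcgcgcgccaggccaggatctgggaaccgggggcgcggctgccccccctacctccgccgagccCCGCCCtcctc
Unc13c (chr9:73969038-73969287, minus strand): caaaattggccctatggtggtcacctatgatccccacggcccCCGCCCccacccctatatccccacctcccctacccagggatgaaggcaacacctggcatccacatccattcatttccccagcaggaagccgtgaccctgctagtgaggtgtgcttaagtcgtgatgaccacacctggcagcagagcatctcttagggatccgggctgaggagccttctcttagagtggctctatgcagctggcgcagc
Unc13a (chr8:71671758-71672007, minus strand): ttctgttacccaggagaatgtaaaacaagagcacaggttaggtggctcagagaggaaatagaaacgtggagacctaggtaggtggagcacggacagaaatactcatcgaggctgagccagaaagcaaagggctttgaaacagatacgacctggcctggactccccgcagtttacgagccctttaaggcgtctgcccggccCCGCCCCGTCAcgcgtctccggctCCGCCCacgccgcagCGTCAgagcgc

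The Syt6 start shown had an H3K27ac peak in CP and NAC but not in PVT or COR, although an ATAC peak lay over it in PVT, and a further Syt6 window, whose start lies downstream, had H3K27ac peaks in all 4 regions. Its paralog Syt3 had H3K27ac at the start in PVT, COR and NAC and an ATAC peak in PVT. The Cplx2 start shown was acetylated in PVT, CP and NAC without an ATAC peak, and the Cplx1 start was acetylated in PVT, COR and NAC with an ATAC peak. The Unc13c start was acetylated in COR, CP and NAC and open in PVT without an H3K27ac peak there, and the Unc13a start was acetylated in all 4 regions. Stx1a, the plasma-membrane syntaxin, had an ATAC peak over its start in PVT and no H3K27ac peak over it in any region.

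Over the 28 genes, GGGCGG was found on either strand in at least 1 window of 24 genes (85.7%), against 49.2% of all 17491 genes with windows. Members had a median GC content of 62.3% per window, against 56.3% over all 21262 windows. TATAAA was found for 2 of 28 genes (all genes 14.8%), the whole CRE TGACGTCA for 0 (all genes 2.54%) and its half-site TGACG for 7 (all genes 26.2%). The NRF1 motif was found for 3 of 28 (all genes 7.17%). The left half-site of REST, TTCAGCACC, lay in 1 member window, that of Unc13a (all genes 0.480%), in the 50 bases after the start that are not printed. An H3K27ac peak overlapped a window of 19 of the 28 genes in PVT (all genes 42.6%), 20 in COR (39.3%), 16 in CP (23.7%) and 22 in NAC (39.7%), and an ATAC peak overlapped a window of 22 (52.4%).

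Acetylation over the 38 genes reached well past the starts. PVT held 651 peaks over them with 979 kb inside the gene windows, COR 542 peaks with 719 kb, CP 537 peaks with 409 kb, and NAC 555 peaks with 688 kb. The median share of a gene's window covered was 18.9% in PVT, 13.8% in COR, 7.06% in CP and 9.28% in NAC. Over all genes with a peak the medians were 8.04%, 7.54%, 3.22% and 6.15% in the same order. The most bases inside the window were called in PVT for 20 genes, in COR for 8 and in NAC for 10. This count was not made over all genes, so it is not a trait shown for these 38. Between 11.7% (PVT) and 13.3% (COR) of member peaks overlapped a peak of each other region. Between 5.41% (NAC) and 8.67% (COR) also lay in the window of another protein-coding gene, so their counts cannot be assigned to the member alone.

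The longest member peaks were in PVT and lay inside genes. One of 38.8 kb at chr19:10389616-10428444 ran through Syt7, a slow, high-affinity calcium sensor, whose window was covered to 81.3% in PVT, 35.7% in COR, 11.1% in CP and 24.8% in NAC. Another of 37.3 kb at chr10:86290400-86327653 lay in Syn3, a synapsin. One more, 25.5 kb at chr2:92924759-92950210, lay in Syt13, a synaptotagmin that does not bind calcium. The longest in COR was 14.9 kb in Sv2b, the longest in CP 9.38 kb over the start of Syt6, and the longest in NAC 10.5 kb in Syt1.

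**Figure D1:**
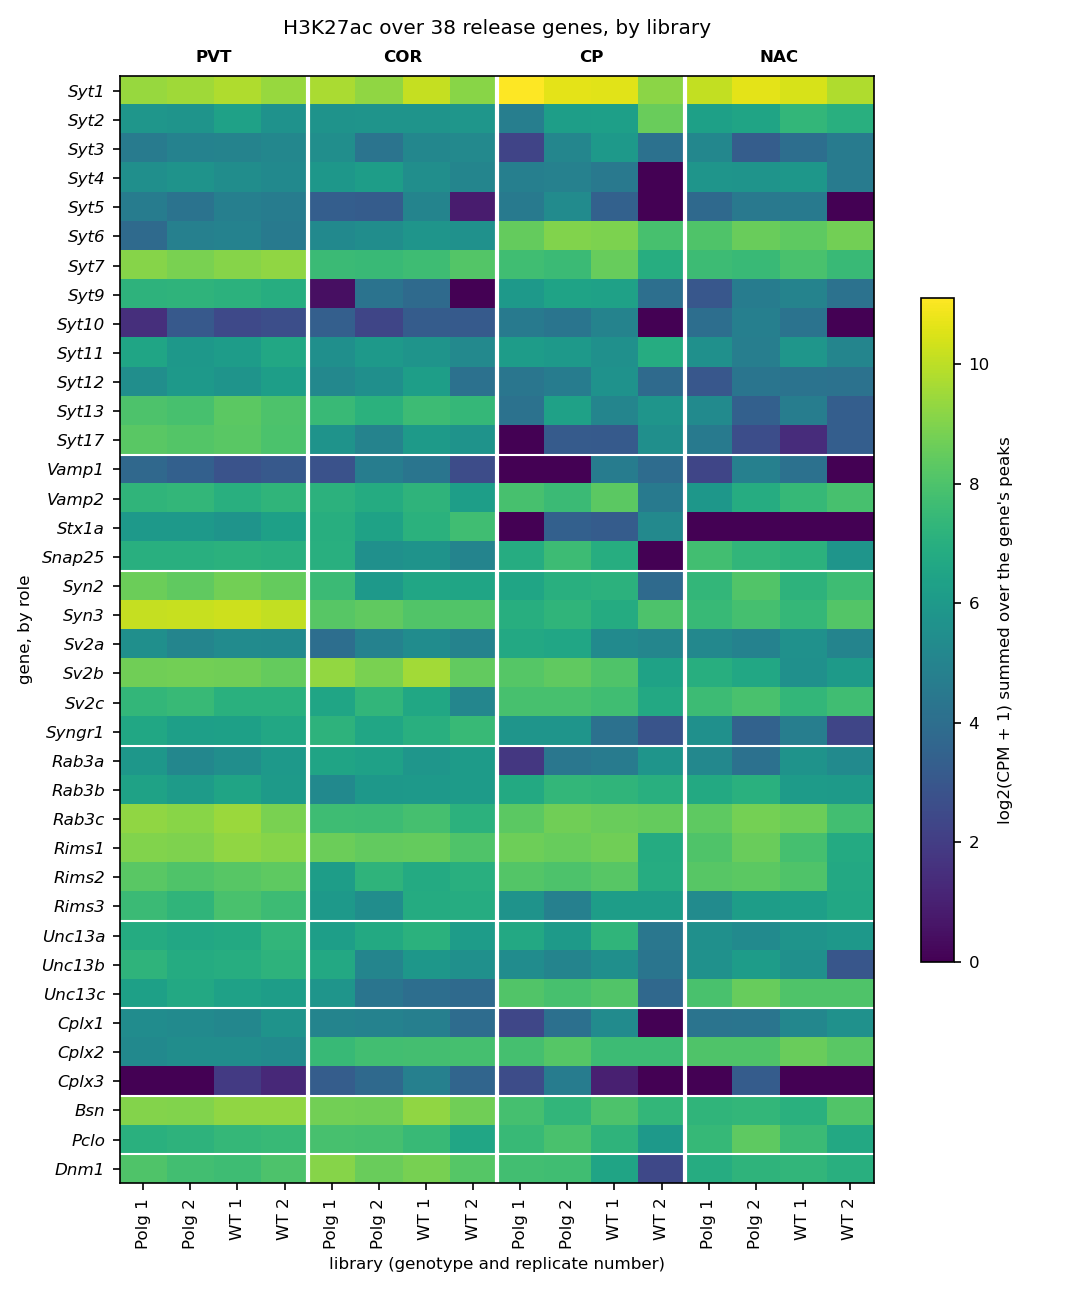
H3K27ac over the 38 genes (rows, by role) in the 16 libraries (columns, by region, Polg left of WT), as log2(CPM + 1) summed over each gene's peaks. Syn3 is high in all 4 PVT libraries (1089 to 1244 CPM), and Syt6 is high in CP and NAC. Of genes with a peak in the region, WT replicate 2 of CP and NAC hold 6 and 4 at 0. Stx1a, which has no NAC peak, is also at 0 in every NAC library.

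In PVT over COR, 9 of the 38 genes passed at an adjusted p under 0.05 (edgeR's quasi-likelihood test, Benjamini-Hochberg adjustment over 18057 genes), 6 higher in PVT and 3 lower. This is against 21% of all genes called, 10.8% higher and 10.2% lower. The median log2 fold change was 0.44 over the 38 and 0 over all genes. In PVT over the striatum, which is the mean of CP and NAC, 17 passed, 14 higher and 3 lower, against 34.9% of all genes called, 25.2% higher and 9.7% lower. Medians there were 0.84 over the 38 and 0.56 over all genes. In bulk nuclei, more cells with a mark and more of it per cell cannot be told apart.

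Of the 13 synaptotagmins, 6 passed in at least 1 of these 2 contrasts. The share of all genes that passed at least 1 is not given here, so the count is not read as a result about the family. Syt6, of the synaptotagmin subfamily that also holds Syt3 and Syt10, had 13.5, 27.9, 29.8 and 22.4 CPM in PVT, against 354, 511, 482 and 232 CPM in CP and 267, 378, 327 and 422 in NAC. COR libraries held 37.9, 43.1, 54.5 and 47.7 CPM. All PVT libraries lay below all others, and both striatal regions lay above COR without overlap. The log2 fold change was -3.99 ± 0.33 (SE; adjusted p = 1.17e-05) in PVT over striatum, a 15.9-fold lower level, and -0.97 ± 0.31 (SE; adjusted p = 0.043) in PVT over COR. The second call was lost in 13 of 16 fits that left out 1 library.

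Syt7 went the other way, with 551, 468, 548 and 606 CPM in PVT, against 188, 182, 199.5 and 279.6 CPM in COR. CP held 208, 188, 366 and 122 CPM and NAC 197, 183, 238 and 186 CPM, all below the lowest PVT library. Its log2 fold change was 1.36 ± 0.29 (SE; adjusted p = 0.00859) over COR and 1.368 ± 0.24 (SE; adjusted p = 0.00146) over striatum. Peaks summed for Syt7 in PVT spanned 72750 bases, 60505 of them inside its window. The longest Syt7 peaks in CP and NAC, 5.60 kb and 8.82 kb, lay in the flank and also reached past the window. How much of the Syt7 counts came from outside the window was not measured. Syt13 had 255, 236, 319 and 253 CPM in PVT, against 17.04, 81.4, 32.4 and 55.3 CPM in CP and 38.6, 9.66, 24.9 and 8.96 in NAC, a log2 fold change over striatum of 3.11 ± 0.45 (SE; adjusted p = 0.000448). COR lay at 138 to 196 CPM, and PVT over COR was not called for Syt13 (adjusted p = 0.516).

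Syt17, an atypical synaptotagmin, ranged 246 to 309 CPM in PVT, 30.7 to 64.8 in COR, 0 to 44.9 in CP and 1.67 to 22.4 in NAC. It passed over striatum (4.91 ± 0.89 SE, adjusted p = 0.00181) and had an adjusted p of 0.122 over COR. Syt12, a phosphorylated vesicle synaptotagmin, passed over striatum at 1.55 ± 0.53 (SE; adjusted p = 0.0413), a call lost in 11 of 16 fits without 1 library. Syt1, the main fast calcium sensor of forebrain synapses, was lower in PVT, with 669, 738, 874 and 665 CPM against 2209.6, 1607, 1558 and 582 CPM in CP and 1087, 1597, 1379 and 883 in NAC. The PVT range overlapped that of CP through the low CP WT replicate 2. Its log2 fold change of -0.85 ± 0.29 (SE; adjusted p = 0.0374) was lost in 9 of 16 fits without 1 library. Syt9, another fast sensor, had 145, 148, 140.3 and 122 CPM in PVT, against 0.375, 17.8, 13.1 and 0 in COR, without overlap. It did not pass over COR (adjusted p = 0.0735) and had an adjusted p of 0.189 over striatum. Syt2, Syt3, Syt4, Syt5, Syt10 and Syt11 passed neither contrast.

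Among proteins that act on the fusion complex, the complexin Cplx2 had 37.5, 42.7, 41.97 and 38.3 CPM in PVT, against 179, 216, 219 and 225 CPM in COR. CP held 227, 288, 194 and 194 CPM and NAC 263, 262, 377 and 310.5 CPM. All 4 PVT libraries lay far below the other 12. The log2 fold change was -2.39 ± 0.20 (SE; adjusted p = 1.93e-05) over COR and -2.69 ± 0.19 (SE; adjusted p = 2.92e-06) over striatum, 5.22-fold and 6.46-fold lower levels. Both calls were kept in all 16 fits that left out 1 library. Cplx1, its paralog, averaged 41.5 ± 7.26 CPM in PVT, 25.2 ± 7.47 in COR, 15.2 ± 18.04 in CP and 30.03 ± 14.5 in NAC (SD, n = 4 each) and did not pass (adjusted p = 0.817 over COR, 0.51 over striatum). Cplx3, a complexin of retinal ribbon synapses and cortical subplate neurons, held 0, 0, 2.67 and 1.41 CPM in PVT, against 8.61, 12.8, 27.9 and 11.3 in COR. It was called lower in PVT (adjusted p = 0.0461), a call lost in 10 of 16 fits without 1 library. Both Polg libraries of PVT were at 0, so no fold is given for Cplx3.

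**Figure D2:**
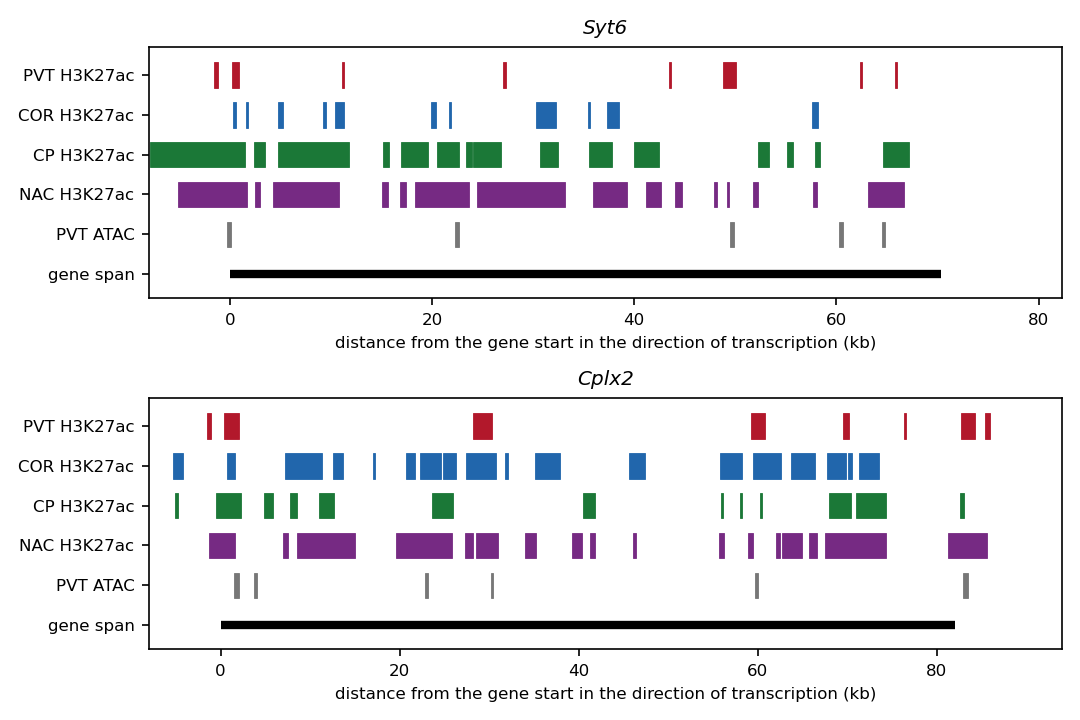
Peaks called over Syt6 and Cplx2, by distance in kb from the gene start in the direction of transcription, for H3K27ac in PVT, COR, CP and NAC and ATAC in PVT; the black bar is the gene span. Peaks of CP and NAC cover 43.0% and 49.0% of the Syt6 window and those of PVT 4.51%, and PVT peaks cover 9.18% of the Cplx2 window.

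Of the SNAREs, Stx1a stood apart. It had 62.4, 64.1, 52.4 and 77.6 CPM in PVT and 124, 83.6, 136 and 206 CPM in COR, against 0, 9.46, 8.29 and 36.4 CPM over 502 called bases in CP. No peak was called over it in NAC. Its NAC value therefore entered the fits as 0 in every library. With that value it was called higher in PVT over striatum (adjusted p = 0.00093), in COR over striatum (adjusted p = 0.000866) and in CP over NAC (adjusted p = 0.00602). The CP over NAC call sets 502 called bases against none and was lost without CP Polg replicate 2. A fold against a region with no peak is not given. Vamp1, Vamp2 and Snap25 did not pass in PVT over COR or over striatum. Vamp2, the main vesicle SNARE of the forebrain, averaged 149 ± 13.96 CPM in PVT, 119 ± 33.8 in COR, 191 ± 124 in CP and 146 ± 75.1 in NAC (SD, n = 4 each).

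Both synapsins among the genes chosen here, Syn2 and Syn3, were called higher in PVT. This does not hold for the whole family. Syn1, a synapsin outside the chosen genes, averaged 11.8 CPM in PVT, against 41.1 in COR, 49.3 in CP and 23.5 in NAC. Its PVT range overlapped those of COR and NAC, and its test result is not given here. Syn3 had 1129, 1139.9, 1244 and 1089 CPM in PVT, against 296, 332, 272 and 273 in COR. CP held 125, 153, 113 and 257 CPM and NAC 176, 224, 170.2 and 278 CPM. No PVT library came near any other, and the log2 fold change was 1.98 ± 0.26 (SE; adjusted p = 0.000443) over COR and 2.64 ± 0.21 (SE; adjusted p = 9.33e-06) over striatum. Both Syn3 calls were kept in all 16 fits without 1 library. Syn2 had 394, 339, 422 and 358 CPM in PVT, against 187, 63.3, 95.7 and 91.5 in COR, a log2 fold change of 1.80 ± 0.57 (SE; adjusted p = 0.0432). That call was lost in 14 of 16 fits. Over striatum Syn2 stood at 1.504 ± 0.46 (SE; adjusted p = 0.0256), lost in 4 of 16 fits.

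Among vesicle membrane proteins, Sv2b, a transporter-like glycoprotein, ranged 362 to 432 CPM in PVT and passed over striatum (1.58 ± 0.28 SE, adjusted p = 0.00167). Its paralogs Sv2a, the target of the drug levetiracetam, and Sv2c did not pass in either PVT contrast. Synaptogyrin (Syngr1), a small vesicle membrane protein, passed over striatum at 1.96 ± 0.50 (SE; adjusted p = 0.0109).

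Among the Rab3 and RIM proteins, Rab3c, a vesicle GTPase, had 617, 568, 703 and 464 CPM in PVT, against 204, 198, 227 and 138 in COR, without overlap and with a log2 fold change of 1.62 ± 0.25 (SE; adjusted p = 0.00135). Over striatum it stood at 0.74 ± 0.21 (SE; adjusted p = 0.0172), lost without PVT WT replicate 1. Rims2, an active-zone scaffold that recruits calcium channels, had 305, 264, 298 and 325 CPM in PVT, against 71.5, 151, 111 and 127 in COR (1.374 ± 0.36 SE, adjusted p = 0.0213), a call lost in 4 of 16 fits. Rims3, a short RIM without the Rab3-binding end, had 188, 151, 243 and 196 CPM in PVT, against 61.5, 41.97, 115 and 116 in COR. Its log2 fold change was 1.32 ± 0.31 (SE; adjusted p = 0.0121) over COR, lost in 2 of 16 fits, and 1.66 ± 0.25 (SE; adjusted p = 0.000578) over striatum. Rims1 passed over striatum at 0.99 ± 0.30 (SE; adjusted p = 0.0235), a call lost without PVT WT replicate 1 or without NAC Polg replicate 1. Rab3a and Rab3b did not pass in either PVT contrast.

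Of the priming factors, Unc13b (Munc13-2) passed over striatum at 1.84 ± 0.48 (SE; adjusted p = 0.0116), and Unc13a and Unc13c did not pass in either PVT contrast. Bsn, the giant scaffold Bassoon, had 531, 508, 614 and 621 CPM in PVT, against 224, 159, 253 and 163 in CP and 152, 162, 134 and 271 in NAC, with no overlap. Its log2 fold change over striatum was 1.59 ± 0.21 (SE; adjusted p = 0.000247), and PVT over COR was not called (adjusted p = 0.54). Its partner Piccolo (Pclo) averaged 155 ± 21.2 CPM in PVT, 184 ± 65.1 in COR, 157 ± 74.03 in CP and 197 ± 91.1 in NAC (SD, n = 4 each) and passed neither contrast, as did dynamin (Dnm1).

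**Figure D3:**
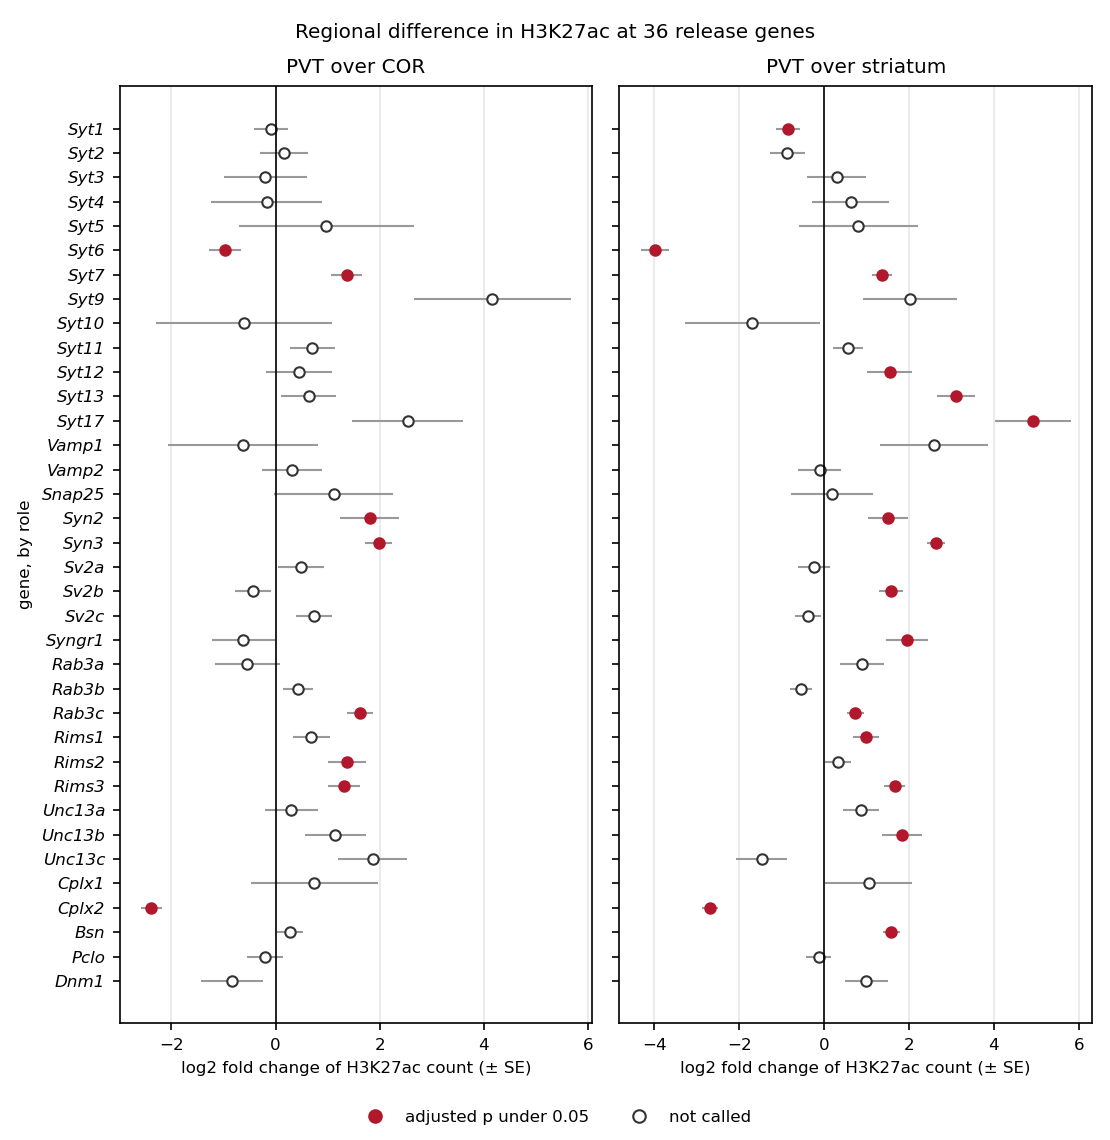
Log2 fold change of H3K27ac counts with its SE for 36 of the 38 genes (rows, by role), PVT over COR and PVT over striatum (the mean of CP and NAC); Stx1a and Cplx3 are left out because libraries at 0 set their fold. Filled points have an adjusted p under 0.05, among them Cplx2 and Syt6 to the left and Syn3 to the right in both panels.

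Cortex over striatum gave 13 calls among the 38, 7 higher and 6 lower, against 26.9% of all genes called, 20.1% higher and 6.8% lower. The median was 0.19 over the 38 and 0.47 over all genes. Higher in COR were Sv2b (2.01 ± 0.28 SE, adjusted p = 0.000638), Bsn (1.30 ± 0.21 SE, adjusted p = 0.0013), Syt13 (2.48 ± 0.44 SE, adjusted p = 0.0023), Syngr1 (2.58 ± 0.50 SE, adjusted p = 0.00371), Dnm1 (1.83 ± 0.50 SE, adjusted p = 0.0185), Syn3 (0.67 ± 0.21 SE, adjusted p = 0.0368) and Stx1a. Sv2b held 641, 463, 751 and 347 CPM in COR, against 293, 339.6, 261 and 83.2 in CP and 124, 101, 46.2 and 66.01 in NAC, so that every COR library lay above every striatal one. Dnm1, the GTPase of vesicle retrieval, held 553, 380.4, 459.8 and 289 CPM in COR, against 213, 209, 89.7 and 4.34 in CP and 116, 147, 159 and 128 in NAC. COR lay above both striatal regions without overlap.

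Lower in COR were Syt6 (-3.02 ± 0.31 SE, adjusted p = 0.000134), Unc13c (-3.34 ± 0.67 SE, adjusted p = 0.00411), Rab3c (-0.88 ± 0.22 SE, adjusted p = 0.0124), Rab3b (-0.98 ± 0.26 SE, adjusted p = 0.0165), Sv2c (-1.11 ± 0.31 SE, adjusted p = 0.0221) and Rims2 (-1.05 ± 0.32 SE, adjusted p = 0.0325). Unc13c (Munc13-3, known from cerebellar granule cells) held 54.9, 19.1, 14.98 and 13.4 CPM in COR, against 269.5, 233, 269 and 12.6 in CP and 243, 371, 265 and 268 in NAC. One striatal library, CP WT replicate 2, fell below the COR range, and the other 7 lay above it. Sv2c, known from the basal ganglia, held 92.1, 158, 96.7 and 33.6 CPM in COR, against 233, 233, 207 and 102 in CP and 198, 243, 161 and 206 in NAC, with an overlap. The Dnm1, Rab3b and Sv2c calls were each lost in 2 of 16 fits without 1 library, Rab3c in 1, Rims2 in 6 and Syn3 in 12.

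Within the striatum, CP over NAC called 2 of the 38, both higher in CP (Sv2b, and Stx1a for which no NAC peak was called), against 13% of all genes, 3.41% higher and 9.6% lower. Sv2b had a log2 fold change of 1.55 ± 0.35 (SE; adjusted p = 0.0139). Its 3 higher CP libraries lay above every NAC library, while CP WT replicate 2 fell within the NAC range. The Sv2b call was lost without NAC Polg replicate 2 or without NAC WT replicate 1.

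The counts followed how much of a gene was called as peak. Across members the rank correlation between the log2 fold change of the count and the log2 ratio of covered length was 0.94 in PVT over COR (38 genes), 0.86 in PVT over striatum (38), 0.94 in COR over striatum (38) and 0.70 in CP over NAC (37). The points share libraries and peak lists, so this is a description. In all 9, 17 and 13 calls of the first 3 contrasts, the covered length differed in the same direction as the count. Divided by covered kb, 0 of 37 testable members were called in PVT over COR, 1 in PVT over striatum (Cplx2, lower in PVT) and 0 in COR over striatum, against 1, 46 and 7 of 12032 genes called over the whole table. In CP over NAC 3 were called per kb, all higher in CP, against 4.48% of all genes. They were Cplx2 (0.76, and -0.42 before the division), Syn3 (1.11, and -0.40 before it) and Rab3c (1.09, and 0.12 before it). Of the members called higher in PVT over striatum, 13 could be tested per kb, and 10 of them (Syn3, Bsn, Syt13, Rims3, Syt7, Sv2b, Syt17, Unc13b, Syn2 and Syt12) then stood below 0 without passing.

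With peaks that overlap a peak of each other region, 13 of 31 testable members were called in PVT over COR, 16 in PVT over striatum and 15 in COR over striatum, against 23.7%, 27.6% and 20.4% of all 7192 genes so tested. An overlap of 1 base was enough, and each such peak kept the length and whole count of its own region. Called length can therefore still differ between regions here. A gene without such a peak in a region entered there as 0. Calls in PVT over COR included Syt12 (12.9), Syt4 (14.2) and Unc13c (-12.8), too extreme to be read as folds. The member shares are therefore not read as a result about the members. Of the 9, 17 and 13 members called with every peak, 8, 14 and 12 could be tested with the overlapping peaks. Called in the same direction were 6, 11 and 9 of them. Rims3 in PVT over striatum (-7.22, not called), Syn3 in COR over striatum (-0.018, not called) and Unc13c in COR over striatum (6.18, called) had the opposite sign. In CP over NAC with these peaks, Unc13c stood at -13.3 and Rims3 at -14.4. The striatal mean thus joins 2 regions that lie far apart for Unc13c and Rims3. Their opposite signs are not read as a reversal against both CP and NAC.

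**Figure D4:**
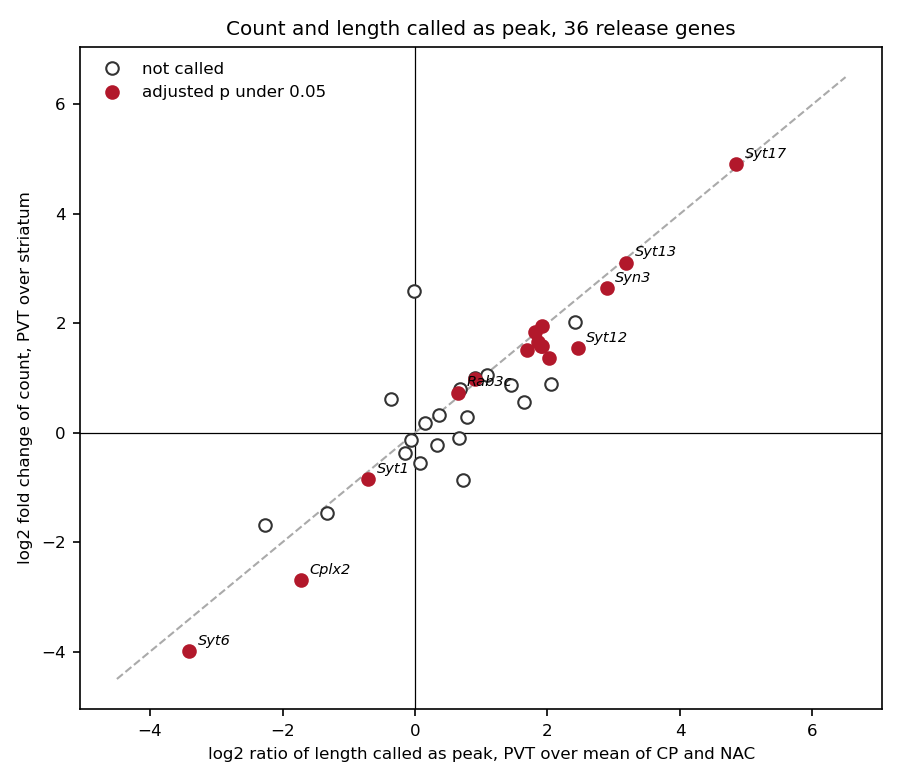
Log2 fold change of H3K27ac counts in PVT over striatum against the log2 ratio of length called as peak, PVT over the mean of CP and NAC, for 36 genes (Stx1a and Cplx3 left out); the dashed line marks equal values. Called genes (filled) lie near the line, from Syt6 (-3.99) at the lower left to Syt17 (4.91) at the upper right.

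The counts of calls moved with single libraries. PVT over COR fell to 4 calls without PVT WT replicate 1 and to 5 without PVT Polg replicate 1, COR Polg replicate 1 or COR Polg replicate 2. COR over striatum gave 8 without COR Polg replicate 1 and 21 without CP WT replicate 1. CP over NAC gave 8 without CP WT replicate 1, 4 without CP WT replicate 2 and 1 without CP Polg replicate 2, NAC Polg replicate 2 or NAC WT replicate 1. Without the 2 libraries that stood apart, chosen after seeing the data, PVT over COR gave 14 calls, PVT over striatum 20, COR over striatum 16 and CP over NAC 4. In WT libraries alone the counts were 1, 7, 2 and 0.

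A wider list of 51 genes of vesicles and release that are not among the 38 was set beside them, and 49 were tested. In PVT over COR 9 were higher and 7 lower, in PVT over striatum 16 and 4, in COR over striatum 14 and 3, and in CP over NAC 0 and 3. Their median log2 fold change was -0.36 in PVT over COR and 0.30 in PVT over striatum. The called genes of smallest p included Rimbp2, which links RIM to calcium channels and stood at 1.41 ± 0.14 in PVT over striatum (SE; adjusted p = 3.49e-05). Sh3gl2 (endophilin A1), a partner of dynamin, stood at 2.00 ± 0.22 in the same contrast (SE; adjusted p = 7.91e-05). Cadps2, a priming factor of dense-core vesicles, held 16.9, 15.9, 8.00 and 2.78 CPM in PVT, against 569, 395, 251 and 134 CPM in COR, a log2 fold change of -5.02 ± 0.64 (SE; adjusted p = 0.00038). Scamp1, a vesicle carrier protein, stood at -3.14 ± 0.45 in PVT over striatum (SE; adjusted p = 0.000474).

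In PVT open chromatin, 36 of the 38 genes had 291 ATAC peaks, with none for Cplx3 and Syngr1. An H3K27ac peak of PVT overlapped 161 of the 291 (55.3%), against 46.0% of the 58996 ATAC peaks in gene windows. The share differed by gene. All 7 open sites of Syt13 and all 4 of Bsn were acetylated, as were 20 of 28 in Syn3. Only 1 of 5 was acetylated in Syt6, 6 of 27 in Pclo, 2 of 9 in Unc13b and 0 of 4 in Syt10. Cplx2 kept 6 open sites in PVT, 4 of them acetylated.

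The genotype comparison asked whether Polg(D181A) changed these genes within a region, with each table fitted alone. No member passed in any of the 5 tables by edgeR's quasi-likelihood test (38 tested in PVT, COR and CP, 36 in NAC and ATAC), and no tested member peak passed (642, 500, 383, 488 and 285 tested in PVT, COR, CP, NAC and ATAC). Among all gene sums 0% were called in each H3K27ac table (15666 genes in PVT, 15518 in COR, 13265 in CP and 14658 in NAC) and 0.0121% in ATAC (0.00603% higher and 0.00603% lower). Among all peaks the shares were 0%, 0%, 0%, 0.00286% and 0.00114% in the same order. At an unadjusted p under 0.05 there were 3, 1, 1, 2 and 3 member genes, against 8.09%, 5.65%, 2.26%, 3.48% and 3.87% of all genes, and 32, 25, 29, 8 and 19 member peaks, against 8.09%, 9.29%, 6.69%, 1.20% and 6.13% of all peaks. The median log2 fold change over members was -0.07 in PVT, -0.09 in COR, 0.28 in CP, 0.14 in NAC and 0.01 in ATAC, against 0.01, 0.01, 0.18, 0.13 and 0 over all genes. DESeq2 called 1 member gene in each H3K27ac table and 0 in ATAC, against 2.04%, 11.2%, 7.39%, 4.06% and 0.00602% of all genes. It called 45, 85, 153, 13 and 0 member peaks (6.91%, 15.7%, 28.5%, 2.34% and 0% of those tested), against 10.4%, 26.6%, 27.6%, 1.51% and 0.00334% of all peaks, where edgeR called 0 member peaks in each table.

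The members of smallest p in PVT H3K27ac were Cplx3, Sv2c and Rims3. Sv2c had 165 and 179 CPM in Polg libraries and 130.3 and 133 in WT, without overlap, and a log2 fold change of 0.39 ± 0.16 (SE; adjusted p = 0.586). Rims3 had 188 and 151 CPM in Polg and 243 and 196 in WT (-0.37 ± 0.17 SE, adjusted p = 0.612). Cplx3 had 0 and 0 CPM in Polg and 2.67 and 1.41 in WT, levels too low to give a fold. None of the 3 passed.

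In cortex Rims3 had the smallest p, with 61.5 and 41.97 CPM in Polg and 115 and 116 in WT (-1.15 ± 0.42 SE, adjusted p = 0.848). Pclo had 238 and 227 CPM in Polg and 177 and 94.6 in WT, and Snap25 127 and 46.96 in Polg and 51.9 and 30.8 in WT. The Snap25 groups overlapped, and neither passed (adjusted p = 0.851 for Pclo and 0.895 for Snap25 by edgeR).

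In CP, Syt2, the fast calcium sensor of hindbrain and spinal synapses, had 25.98 and 74.4 CPM in Polg and 77.2 and 376 in WT. The high WT value belongs to the library with 80.8% of peaks at 0, and the log2 fold change was -2.38 ± 0.90 (SE; adjusted p = 1). Vamp1 held 0 and 0 CPM in Polg and 24.5 and 14.04 in WT. Dnm1 held 213 and 209 CPM in Polg and 89.7 and 4.34 in WT (2.23 ± 1.14 SE, adjusted p = 1). Without CP WT replicate 1, which left the sparse library as the only WT one, 6 members and 39 member peaks were called. Without CP WT replicate 2, 0 members and 1 member peak were called. A lone library of an arm is taken in such a fit to vary like the other arm. The shares of all genes and peaks called in such fits, here and in NAC below, are not given. Their counts are therefore not read as a result about the members.

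In NAC, Vamp2 had 58.2 and 118 CPM in Polg and 175 and 233 in WT (-1.32 ± 0.46 SE, adjusted p = 0.996), and Syt2 79.02 and 88.9 in Polg and 163 and 129 in WT (-0.88 ± 0.37 SE, adjusted p = 0.996). Rims1 had 264 and 382 CPM in Polg and 230.3 and 109.5 in WT (0.86 ± 0.42 SE, adjusted p = 0.996). Polg and WT values did not overlap for any of these 3 genes, and none passed. Without NAC WT replicate 1, 2 members were called.

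In PVT ATAC, Syt9 had 93.4 and 76.02 CPM in Polg and 56.7 and 54.7 in WT (0.60 ± 0.23 SE, adjusted p = 1), Vamp2 41.9 and 50.8 in Polg and 72.96 and 62.6 in WT (-0.55 ± 0.24 SE, adjusted p = 1), and Rims2 99.3 and 129 in Polg and 140.2 and 159 in WT (-0.38 ± 0.18 SE, adjusted p = 1). Groups did not overlap for any of these 3, in CPM of the ATAC table. The ATAC libraries replicated more closely than the H3K27ac ones, with a common biological coefficient of variation over gene sums of 0.217, against 0.482 in PVT H3K27ac, 0.972 in COR, 1.53 in CP and 1.06 in NAC.

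Of single peaks, those of smallest p in PVT H3K27ac lay in the flank of Unc13b, outside its span (chr4:43042605-43043515), with 125 and 165 counts in Polg and 1427 and 666 in WT. Another lay in Syngr1 (chr15:80113905-80114215), with 0 and 0 counts in Polg and 519 and 303 in WT. One more lay in Rab3c (chr13:110202967-110203225), with 0 and 0 in Polg and 890 and 139 in WT. All had an adjusted p of 0.556 by edgeR. In COR, a peak in Pclo (chr5:14666675-14668129) held 690 and 4263 counts in Polg and 0 and 0 in WT, and one in Unc13b (chr4:43176036-43176606) held 3005 and 171 in Polg and 0 and 0 in WT (adjusted p = 0.535 for both by edgeR). A COR peak in Rab3c (chr13:110190615-110190961) held 0 and 0 counts in Polg and 209 and 1218 in WT, with the same adjusted p. The leading CP peaks lay in Rab3c (chr13:110187427-110188523), with 953 and 1025 counts in Polg and 0 and 0 in WT, and in Sv2c (chr13:96121983-96122870), with 488 and 1812 in Polg and 0 and 0 in WT. A CP peak in Bsn (chr9:108102861-108103204) held 0 and 0 in Polg and 297 and 1325 in WT (adjusted p = 0.373 for all 3 by edgeR). In NAC, a peak in Bsn (chr9:108110448-108111525) held 3 and 65 counts in Polg and 1602 and 506 in WT. Another in Unc13c (chr9:73579662-73580765) held 0 and 0 in Polg and 707 and 236 in WT, and one more in Unc13c (chr9:73765607-73766514) 0 and 0 in Polg and 513 and 234 in WT (adjusted p = 0.984 for all 3 by edgeR). In open chromatin the leading site was 323 bases in Syt1 (chr10:108649159-108649481), with 38 and 39 counts in Polg and 5 and 4 in WT, a log2 fold change of 2.84 ± 0.96 (SE; adjusted p = 0.777 by edgeR). A site in Rims1 (chr1:22683139-22683672) held 68 and 72 counts in Polg and 271 and 61 in WT, and one in Pclo (chr5:14726228-14726556) 0 and 3 in Polg and 31 and 11 in WT. Library totals differ, so the counts are not on 1 scale.

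Whether the Polg effect differed between the 4 regions was tested with region and genotype in 1 model. No member passed by edgeR (smallest adjusted p = 0.582, for Cplx3), against 0.194% of all genes, and 2 members, Cplx3 and Vamp1, had an unadjusted p under 0.05. How many of all genes had such a p was not counted for this test. The share of all genes called without a given library is likewise not given here. Without CP WT replicate 1, 6 members were called.

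RNA of the 38 genes was compared between the 5 PVT groups in 1 model of 20 libraries (28446 genes tested, 15 residual degrees of freedom). No member passed in any of 6 contrasts by edgeR's quasi-likelihood test. Among all genes 0% were called in 5 contrasts and 1.24% (354 genes; 0.605% higher and 0.64% lower) in depressive over euthymic Polg averaged over COX classes. DESeq2 called 0 to 2 of 29 testable members per contrast, against 3.13% to 6.90% of 37185 genes so tested. With limma's voom and quality weights 0 members were called. Members with an unadjusted p under 0.05 by edgeR numbered 4 in Polg over WT, 5 and 4 in COX-negative over COX-positive (euthymic, depressive), and 2, 7 and 3 in depressive over euthymic (COX-positive, COX-negative, averaged). Over all genes 15.3% to 22.6% had such a p in these contrasts. Whether COX-negative and COX-positive libraries share animals is not in the labels.

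The spread within groups was wide. The common biological coefficient of variation was 1.365, and 12 of the 38 genes had over 50% of their summed CPM in 1 library. Rab3a, the most abundant Rab3 of forebrain vesicles, had 94.3% of its CPM in 1 WT library and 0 counts in 7 of 20. Across the 38 genes the rank correlation of median CPM with gene span was 0.94, as a description across genes. Whether reads were counted over exons or whole genes is not given in the sources used here, and RNA levels are therefore not compared between genes.

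In Polg over WT, euthymic and COX-positive, Syt3 had 0.672, 0.367, 3.67 and 0.152 CPM in Polg and 0.481, 1.19, 584 and 1.80 in WT. One WT library held nearly all of it, and the log2 fold change of -6.92 ± 2.32 (SE; adjusted p = 0.213) became 0.07 without that library. Syt17 had 6.01, 15.9, 5.45 and 4.00 CPM in Polg and 6.53, 587, 2.82 and 9.51 in WT (-4.27 ± 1.72 SE, adjusted p = 0.26). Rab3a had 0, 2.97, 0.0356 and 0.0217 CPM in Polg and 0, 169.9, 0 and 0.502 in WT (-5.81 ± 2.61 SE, adjusted p = 0.293). The high WT library was the same one for Syt17 and Rab3a, and without it their log2 fold changes were 0.33 and 2.10.

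In COX-negative over COX-positive euthymic Polg libraries, Rims3 had 1.96, 28.04, 23.1 and 324 CPM in COX-negative and 1.36, 2.89, 2.83 and 1.41 in COX-positive (5.47 ± 1.70 SE, adjusted p = 0.123). Vamp1 had 1.32, 66.6, 2.96 and 0.666 CPM in COX-negative and 1.02, 0.115, 1.05 and 0.935 in COX-positive (4.52 ± 1.66 SE, adjusted p = 0.139). The groups overlapped for both. Unc13b stood at 3.18 ± 1.27 (SE; adjusted p = 0.16). In the depressive state, Cplx2 had 0.295, 0.522, 0.506 and 0.17 CPM in COX-negative and 5.67, 0.179, 0.13 and 12.01 in COX-positive (-3.59 ± 1.51 SE, adjusted p = 0.188). Syt13 stood at 4.56 ± 1.99 (SE; adjusted p = 0.2) and Syngr1 at 3.88 ± 1.75 (SE; adjusted p = 0.213). A single COX-negative library held 282 CPM of Syt13 and the other 3 held 0.549 to 1.57, and without it the Syt13 change was -1.74.

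In depressive over euthymic Polg libraries, Cplx2 had 5.67, 0.179, 0.13 and 12.01 CPM in depressive and 0.0438, 0.229, 0.463 and 0.391 in euthymic COX-positive libraries (3.99 ± 1.54 SE, adjusted p = 0.183). Syt4 stood at 4.02 ± 1.96 (SE; adjusted p = 0.281) and Syngr1 at -3.05 ± 1.69 (SE; adjusted p = 0.344) there. Among COX-negative libraries Syt13 (5.75 ± 2.11 SE, adjusted p = 0.109), Vamp1 (-4.18 ± 1.63 SE, adjusted p = 0.126) and Syt12 (-4.47 ± 1.76 SE, adjusted p = 0.13) had the smallest p. Averaged over COX classes the leading gene was Snap25, the plasma-membrane SNARE. It had 4.06, 51.5, 3.33 and 2.12 CPM in depressive COX-negative and 1.56, 24.9, 32.8 and 43.97 in depressive COX-positive libraries. Euthymic COX-negative libraries held 428, 102, 3.08 and 287 CPM and euthymic COX-positive ones 98.7, 9.89, 96.9 and 10.3. The states overlapped, and the log2 fold change was -2.41 ± 1.01 (SE; adjusted p = 0.152). Sv2b (1.75 ± 0.86 SE, adjusted p = 0.224) and Syt12 (-2.35 ± 1.14 SE, adjusted p = 0.217) came next. Whether the COX difference depended on state was tested as an interaction, which called 0 members (smallest adjusted p = 0.105 by edgeR) and 0 genes in all. An unadjusted p under 0.05 was found for 8 members. The share of all genes with such a p was not counted for the interaction, so the 8 are not read as a result.

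**Figure D5:**
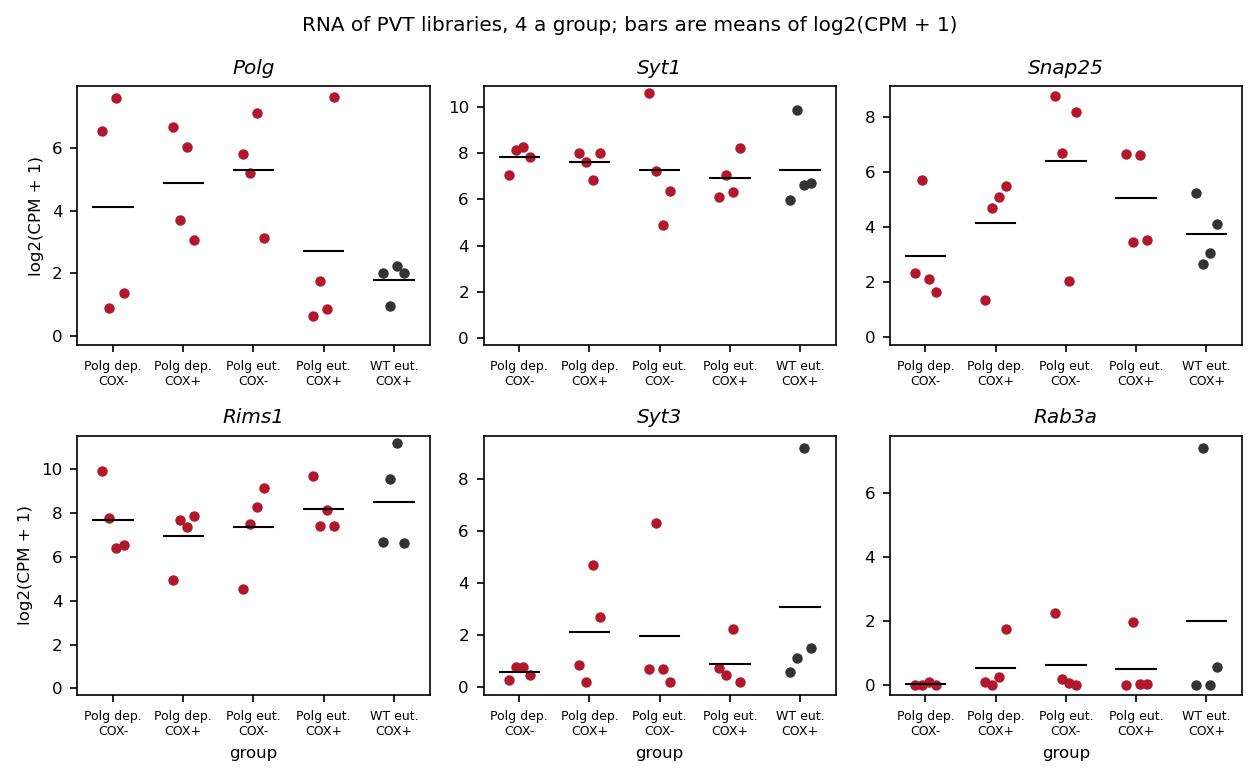
RNA of Polg and 5 release genes by library, as log2(CPM + 1), in depressive Polg COX-negative, depressive Polg COX-positive, euthymic Polg COX-negative, euthymic Polg COX-positive and WT COX-positive libraries (4 each; bars are means). Syt3 and Rab3a each have 1 high WT library (584 and 169.9 CPM), and Snap25 spans 1.56 to 428 CPM.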

How the data were processed

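The authors deposited raw read counts, by gene in the RNA table and by peak in the H3K27ac and ATAC tables, with 1 merged peak set per table. Build mm10 and the tools DESeq2, featureCounts, Subread, HOMER and STAR are named in the submitters' processing notes. Their roles and versions, strand, duplicate removal and peak thresholds were not given in the sources used here. The 4 input libraries were not used here. Every column of the tables was mapped to a group, and 0 value columns were left over. Whether molecular identifiers were used in counting was not given there.

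From these counts, peaks overlapping a protein-coding gene (RefSeq span extended by 5 kb; 1 base of overlap) were summed per gene, each peak with its whole count. Tests were edgeR 4.0.16 quasi-likelihood fits in R 4.3.3, with TMM, edgeR's filter on low counts, robust dispersion, Benjamini-Hochberg adjustment and 2-sided p at an adjusted p under 0.05. Genotype was fitted per table, region over 16 H3K27ac libraries with 8 residual degrees of freedom, and RNA over 20 libraries. SE is the log2 fold change over the square root of F. DESeq2 1.42.0 and limma 3.58.1 (voom) were alternatives, with other scalings, filters, windows, peak subsets, and each library left out in turn. Scripts were tested on simulated data.

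The members, lists and tests were chosen with earlier results of these data known. Values per library are given for called members, up to 6 of smallest p per direction, or else for the 3 of smallest p, and peaks likewise (3 of smallest p per table where none was called).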

Additional observations from a re-analysis of the deposited data

Results flagged for a closer look

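Among the RNA values of members named in the report, 36 groups of 4 libraries were examined for a library far from the other 3 on log2(CPM + 1), using the 95% critical value of Dixon's gap ratio. In 7 groups a library lay beyond it. Chance gives about 1 in 20 for groups that were not selected. These members were named for their small p in the same data, so the 7 are not set against that rate. In euthymic COX-positive Polg libraries the highest were 2.97 CPM of Rab3a and 5.56 CPM of Syt4, and the lowest was 0.115 CPM of Vamp1. In WT libraries the highest were 169.9 CPM of Rab3a and 584 CPM of Syt3. In euthymic COX-negative Polg libraries Syt12 reached 97.9 CPM, and in depressive COX-negative Polg libraries Syt13 reached 282 CPM.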

How the results depend on the processing

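In the region contrasts, no called member changed direction under another scaling, filter or window or without 1 library. Where a count of calls has no share of all genes beside it, here or above, it is not read as a result about the members. With DESeq2 size factors the median over all genes in PVT over striatum was 0.69, against 0.56 under TMM. DESeq2 called 14 members (36.8%) in PVT over COR and 4 (10.5%) in CP over NAC, against 31.5% and 31.0% of all genes. In the genotype sums it called 1 member in each of PVT, COR, CP and NAC, with 45, 85, 153 and 13 member peaks. The shares of all genes and peaks for genotype are given with that comparison above. In RNA, where 29 members had a p-value, DESeq2 called 2 and 1 in COX-negative over COX-positive (euthymic, depressive), against 5.70% and 5.57% of all genes. In depressive over euthymic it called 2, 2 and 1 (COX-positive, COX-negative, averaged), against 4.79%, 6.90% and 5.76%. With at least 10 counts in every library CP over NAC gave 1 call. With peaks that overlap a peak of each other region, CP over NAC gave 7 calls among 31 testable members (22.6%), 6 of them lower in CP. This is against 14.5% of all genes, and the member share is not read as a result, for the reasons given above. A gene without such a peak in a region entered there as 0. Calls lower in CP included Syt4 (-14.0), Rims3 (-14.4), Syt12 (-12.6) and Unc13c (-13.3), too extreme to be read as folds. Counts per kb of called peak gave 0, 1, 0 and 3 calls in PVT over COR, PVT over striatum, COR over striatum and CP over NAC, and WT libraries alone gave 1, 7, 2 and 0 with CP over NAC last. Without the CP and NAC WT libraries of replicate number 2, PVT over COR gave 14 calls and CP over NAC 4.

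Leaving out 1 library gave 4 to 13 calls in PVT over COR, 12 to 23 in PVT over striatum, 8 to 21 in COR over striatum, 1 to 8 in CP over NAC and 0 to 6 for region by genotype. It gave 0 to 6 genes and 0 to 39 peaks for genotype in CP, 0 to 2 genes in NAC, and 0 in the other tables and in RNA.

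Signs turned round per kb for Syt7 (-0.072) and Syt6 (0.016) in PVT over COR, for Syn3 (-0.42), Bsn (-0.33), Syt13 (-0.065), Rims3 (-0.28), Syt7 (-0.67), Sv2b (-0.33), Syt17 (-0.092), Unc13b (-0.11), Syn2 (-0.46) and Syt12 (-0.95) in PVT over striatum, and for Sv2b (-0.52), Bsn (-0.32) and Syn3 (-0.67) in COR over striatum. With shared peaks they did so for Rims3 (-7.22) in PVT over striatum and for Syn3 (-0.018) and Unc13c (6.18) in COR over striatum. A gene without such a peak in a region counted as 0 there. In RNA, leaving out 1 library turned signs as well. In Polg over WT the range was -4.69 to 0.33 for Syt17, -10.83 to 2.10 for Rab3a and -8.48 to 0.074 for Syt3. For Syt12 it was -5.30 to 0.42 in depressive over euthymic COX-negative libraries and -2.82 to 0.036 averaged. For Syt13 it was -1.74 to 6.53 in COX-negative over COX-positive depressive libraries and -0.54 to 6.66 in depressive over euthymic COX-negative ones. None of these had passed in RNA. The cause was not tested, beyond the covered length by which the per-kb counts were divided.

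With the replicate number as a block, 0 members and 0 member peaks were called in each chromatin table, as without it; deviations of same-numbered libraries correlated at -0.068 to 0.040, and the numbers were not taken as pairs. No paired analysis was possible for RNA because its columns carry no replicate number. WT replicate 2 of CP and of NAC had 80.8% and 69.6% of peaks at 0.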
